A study of Mus musculus with 12 samples.

Results

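Leukaemia cells collected 10 days after the end of induction chemotherapy (relapse) were compared with those collected 3 days after it (iCT), using 7 of the 12 libraries of the series. All mice carried MLL-AF9 transgenic acute myeloid leukaemia (AML), and the cells were sorted from bone marrow by their GFP. The iCT group held 3 mice and the relapse group 4 mice, and both had received doxorubicin with cytarabine. Doxorubicin is a topoisomerase poison and cytarabine a nucleoside analogue that stops DNA chains. Another 5 mice had received vehicle, and their values are given as levels. They entered only the alternative fit of all 12 libraries and the profile of Tmem220 described at the end. Each library came from a separate mouse. The sources used here name neither the promoter that drives the fusion gene nor the cells in which it was first expressed, and they do not say whether the mice shared a leukaemia or how the sort was gated other than by GFP. The age of the mice is likewise not given. A gene was tested where 3 or more of the 7 libraries reached 1 FPKM, which left 10719 genes of 24883 table entries. FPKM, the fragments of a gene scaled to the length of its transcript and to the size of the library, is the level the deposited tables give. Gene positions are printed as the tables list them, and they overlap the GRCm38 gene models.

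MLL-AF9 joins the DNA-binding end of a histone methyltransferase to a partner that recruits transcription elongation factors, and it keeps Hoxa9 and Meis1 active in myeloid progenitors. Leukaemias of this kind resemble granulocyte-monocyte progenitors, and a subset of immature cells sustains them. Doxorubicin and cytarabine damage DNA in cycling cells, and the p53 protein responds by inducing genes that stop the cycle or start cell death. Cells that survive can regrow, which is the phase between the sampling times compared here.

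The labelled cell type was checked first. Hoxa9 lay between 55.8 and 75.8 FPKM in iCT and between 49.8 and 66.5 in relapse, and Meis1 between 8.45 and 14.1 and between 12 and 23.8. The primary granule gene Elane stood at 3280 FPKM or more in every library. Cd3e and Cdh5, which mark T cells and endothelium, stayed under 1 FPKM in all 12 libraries. Markers of fat cells and macrophages did not: Adipoq, the adiponectin gene of fat cells, reached 0.747 to 11.1 FPKM in iCT against 0 to 0.481 in relapse, and Marco, a macrophage scavenger receptor, 0 to 2.85 against 0 in every relapse mouse. Their part in the results was not tested. The intervals in the files implied between 362268 fragments (iCT mouse 1) and 8362627 fragments (iCT mouse 2) per library. The shallow library of iCT mouse 1 had a median of 13.9 implied fragments behind a gene at 1 FPKM or more, against 103.5 to 292.5 in the other libraries compared. It stood alone on the first principal component (56.6% of the variance) at 92.5, where the others lay between -26.0 and 3.3. The second component (16.3%) placed iCT mice 2 and 3 at 28.7 and 37.0, iCT mouse 1 at -14.0 and the relapse mice between -18.8 and -8.4. The median SD of a gene was 0.366 on the log2 scale in iCT, or 0.199 without mouse 1, and 0.161 in relapse. The main gene groups are therefore also given without iCT mouse 1.

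By limma, 252 genes (2.35% of those tested) differed between relapse and iCT at an adjusted p under 0.05. Of these, 148 (1.38%) were higher in relapse and 104 (0.97%) lower, and 85 and 88 changed at least 2-fold. The shares of 1.38% and 0.97% are the background for the counts of list members that passed, given below. Of the named genes that passed, Eif3j1 fell furthest, and the next falls included macrophage genes (Ccl8, C1qa, C1qb, C1qc), stefins, the p53 target Phlda3 and the early granulocytic gene Ms4a3. The leading rises included beta-globins, the progenitor markers Cd93 and Cd34 and the monocytic genes Ly86 and Irf8. In all 252 genes every relapse library lay on one side of every iCT library, which was so for 2511 genes tested (23.4%), above in 1824 (17.0%) and below in 687 (6.41%). Unadjusted p-values were under 0.05 for 21.4% of all genes, 15.2% with a positive and 6.24% with a negative change, which is the background for the unadjusted counts of gene lists below. The median gene was 0.16 higher in relapse on the log2(FPKM + 1) scale, on which all changes below are given, and 66.3% of genes had a positive change. After median-of-ratios scaling this median was 0.05 and the split became 117 higher and 213 lower, and after quantile normalization it was 0.02 with 168 and 232. Without iCT mouse 1, 533 genes passed (360 higher, or 3.38%, and 173 lower, or 1.63%, with 241 shared with the 252), and without iCT mouse 2, 398 passed. Without relapse mice 1, 2, 3 and 4 the count fell to 29, 15, 20 and 21. Of the 252, 10 reached 1 FPKM in no relapse library and 9 in no iCT library, so the filter favoured a difference there. Among the genes described below these are Eif3j1, Pf4, Mrc1, Folr2, Lpl, Cd38, Fcgr1 and Dcstamp, seen in iCT alone, and Car1 and Penk, seen in relapse alone. Of 104 named genes that passed, 12 also passed in every omission of a single library in which they were tested. These were Eif3j1, C1qa, C1qb, C1qc, Ms4a3, Cd34, Cdkn1a, Kit, Pim1, Cd38, Gm2a and S100a6. Eif3j1 and Cd38 were tested in only 4 omissions, those of relapse mice, and the others in 7.

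**Figure D1:**
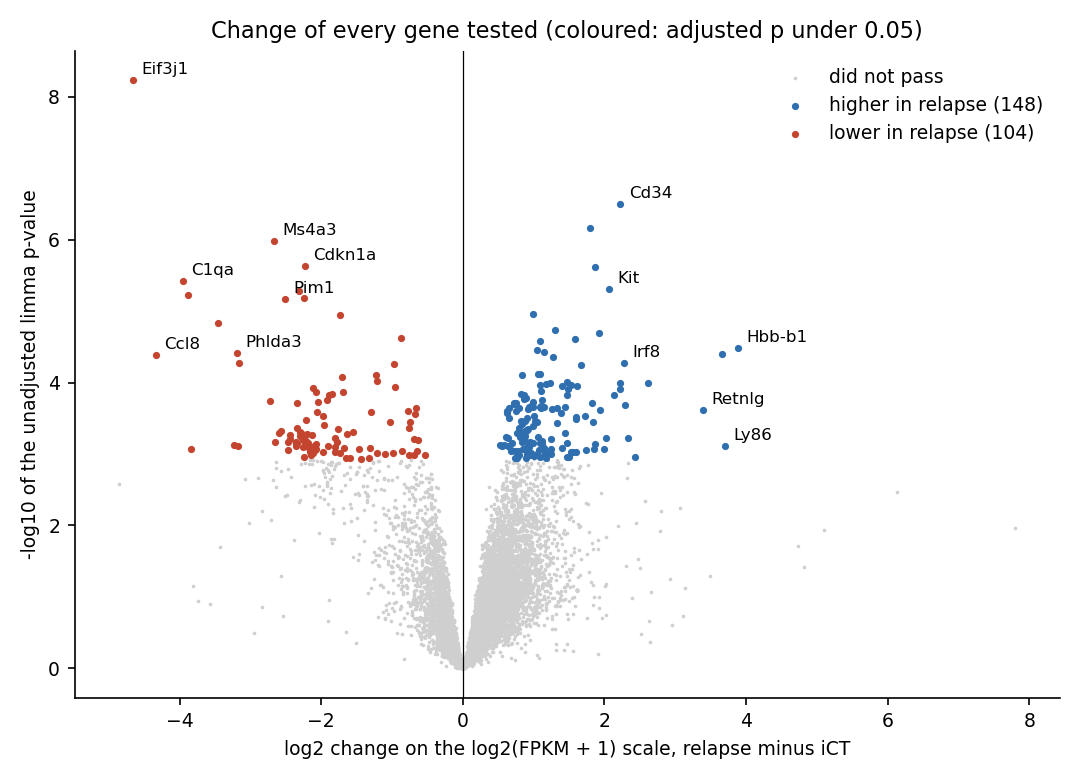
Each point is a gene, placed by its log2 change from iCT to relapse (horizontal axis, log2(FPKM + 1) scale) and by the -log10 of its unadjusted limma p-value (vertical axis). The 148 genes that were higher (blue) and the 104 that were lower (red) at an adjusted p under 0.05 stand out from the genes that did not pass (grey).

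Tissue macrophage genes had the largest share of members past the threshold among the 43 gene lists. Macrophages clear dying cells, and they carry complement C1q, scavenger receptors and iron-handling enzymes. Of 31 listed genes 22 were tested, and 11 of these were lower in relapse and 1 higher, beside 0.97% and 1.38% of all genes tested. C1qa, a chain of the C1q complex that tags debris for uptake, stood at 21.9, 34.2 and 74.6 FPKM in iCT mice 1 to 3 and at 1.42, 1.19, 1.69 and 1.89 in relapse mice 1 to 4. No relapse mouse came near the lowest iCT mouse, and the change was -3.96 (SE 0.37, adjusted p = 0.00582). Vehicle mice held 1.91 to 6.78 FPKM of C1qa, above every relapse mouse. C1qc and C1qb, which lie beside C1qa on chromosome 4, changed by -3.88 and -3.46.

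Ccl8, a monocyte-attracting chemokine gene, stood at 77.8, 28.3 and 37.9 FPKM in iCT and at 2.03, 0.678, 0 and 3.85 in relapse, a change of -4.33 (SE 0.55, adjusted p = 0.0172). Among omissions of a library its call ended without relapse mouse 2, and it also ended with a pseudocount of 0.1 and with no filter on low values. Mrc1, the mannose receptor, stood at 6.58, 2.13 and 3.31 FPKM in iCT and at 0.0612, 0.164, 0.0968 and 0.139 in relapse (change -2.07). Mrc1 is 1 of 7 tested members that reached 1 FPKM in iCT or in relapse alone, so the filter itself favoured a difference there, and the count of 11 is a description. Apoe, a lipid carrier made by macrophages, stood at 83.1, 43.4 and 52.6 FPKM in iCT and at 9.74, 14.1, 5.24 and 16.6 in relapse (change -2.34, adjusted p = 0.0292). Hmox1, the haem-degrading oxygenase, stood at 24.5, 23 and 42.1 FPKM in iCT and at 3.42, 7.71, 5.29 and 8.13 in relapse (change -2.12). The other members that fell were the lipid-sensing receptor gene Trem2 (-1.92), the macrophage transcription factor gene Maf (-1.90), the folate receptor gene Folr2 (-1.98) and the chemokine gene Pf4 (-3.17).

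Adgre1 went the other way. This adhesion receptor, a widely used surface marker of macrophages that monocytes also carry, stood at 14.2, 20.8 and 31.8 FPKM in iCT and at 64.4, 61.2, 71.4 and 70.2 in relapse (change 1.61, SE 0.24, adjusted p = 0.0261). The median over the 22 tested members was -1.91, or -1.66 over the 15 tested without iCT mouse 1, where 9 were lower and 1 higher. Without any single relapse mouse, 3 or 4 members were lower. The summed FPKM of the 31 genes was 1330 to 1550 in iCT, 1030 to 1190 in relapse and 1190 to 1470 in vehicle. Cd5l, a marker of resident macrophages that did not pass, stood at 3.30 to 19.7 FPKM in iCT and at 0.341 to 0.858 in relapse. Siglec1, a macrophage lectin below the filter, stood at 0.809 to 5.24 FPKM in iCT and at 0 to 0.107 in relapse. These libraries are bulk samples, so fewer cells of a type and less RNA per cell cannot be told apart, and the part of other cells in the sort was not tested.

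The promoters of the macrophage genes are shown because 11 genes of this list were lower. The RefSeq promoter table (GRCm38.p6) held entries for 8 of the 12 members that passed, and the 6 with the smallest p are printed as the 150 bases before the start site. Capitals mark the core GAGGAA, read on either strand (TTCCTC on the other), of the sites bound by the myeloid factor PU.1. They lie at chr4:136892915-136893064 (minus strand) for C1qc, chr4:136886201-136886350 (minus) for C1qb, chr11:82115035-82115184 for Ccl8, chr5:90772285-90772434 for Pf4, chr2:14229264-14229413 for Mrc1 and chr17:48346251-48346400 for Trem2, the last 4 on the plus strand.
C1qc: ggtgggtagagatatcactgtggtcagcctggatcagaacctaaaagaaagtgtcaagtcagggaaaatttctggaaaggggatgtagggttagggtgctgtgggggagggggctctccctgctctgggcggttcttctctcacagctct
C1qb: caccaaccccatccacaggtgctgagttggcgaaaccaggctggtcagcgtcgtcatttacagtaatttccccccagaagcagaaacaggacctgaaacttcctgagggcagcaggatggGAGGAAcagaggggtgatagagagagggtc
Ccl8: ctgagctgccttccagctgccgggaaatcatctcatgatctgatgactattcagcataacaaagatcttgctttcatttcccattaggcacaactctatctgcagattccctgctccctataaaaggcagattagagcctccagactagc
Pf4: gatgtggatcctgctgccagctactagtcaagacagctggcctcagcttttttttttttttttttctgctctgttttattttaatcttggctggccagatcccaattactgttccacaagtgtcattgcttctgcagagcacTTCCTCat
Mrc1: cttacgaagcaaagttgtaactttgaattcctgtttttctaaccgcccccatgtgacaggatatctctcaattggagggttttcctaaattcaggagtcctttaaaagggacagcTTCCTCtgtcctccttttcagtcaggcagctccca
Trem2: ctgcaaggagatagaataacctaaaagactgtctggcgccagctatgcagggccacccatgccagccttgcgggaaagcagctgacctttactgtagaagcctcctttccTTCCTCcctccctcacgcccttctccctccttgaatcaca
The core was found in 4 of the 6, those of C1qb, Pf4, Mrc1 and Trem2, and in 14.5% of all 32851 promoters over the same window. The letters TGCTGA of the MAF half-site, on either strand, were found in C1qb and Ccl8 (2 of 6, against 10.1% of promoters). The letters CCAAT, on either strand, were found in Pf4 and Mrc1 (2 of 6, against 24.5%). A match describes these letters and shows no binding.

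Other cell types went several ways. Osteoclasts, which resorb bone, share a precursor with macrophages. Of 14 tested osteoclast genes 1 was lower and none higher, beside 0.97% and 1.38% of all genes tested. That gene, Dcstamp, needed for osteoclast fusion, stood at 5.90, 1.62 and 1.74 FPKM in iCT and at 0.210, 0, 0 and 0 in relapse. It is 1 of 3 members that passed the filter through a single group, here iCT, so the filter favoured this only call. The list's strongest genes did not pass with all 7 libraries. Ctsk, the collagen-degrading cathepsin K, stood at 277, 75.0 and 61.1 FPKM in iCT and at 33.1, 0.152, 0.239 and 3.27 in relapse (change -4.85, SE 1.14, adjusted p = 0.0642). Relapse mouse 1 and iCT mouse 1 were the highest of their groups for Ctsk, as they were for the osteoclast phosphatase gene Acp5, at 42.2 and 347 FPKM (change -2.64, adjusted p = 0.0525). Without iCT mouse 1 Acp5 passed (change -1.93, adjusted p = 0.034) and Ctsk did not (change -4.18, adjusted p = 0.082). Of 20 other settings Acp5 passed in 7 and Ctsk in 4.

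Of 9 tested erythroid genes 3 were higher in relapse and none lower, beside 1.38% and 0.97% of all genes tested. Without iCT mouse 1 the counts were 5 and none, beside 3.38% and 1.63%. The adult beta-globin gene Hbb-b1 was listed at 0, 2.45 and 0.585 FPKM in iCT and stood at 20.4, 31.9, 14.2 and 42.7 in relapse (change 3.89, or 3.48 without iCT mouse 1, adjusted p = 0.0167 with all mice). Hbb-b2 changed by 3.66, and the copies are so alike that reads can be divided between them in more than one way. Car1, an erythroid carbonic anhydrase, was listed at 0 in all 3 iCT mice and stood at 4.73, 4.54, 0.997 and 3.35 FPKM in relapse. Car1 passed the filter through relapse alone, as 1 of 2 such erythroid members, and its call is a description. Without single relapse mice 0 to 3 erythroid genes passed. Vehicle mice spread from 4.36 to 99.4 FPKM for Hbb-b1, so that their range holds every relapse mouse. The summed FPKM of the erythroid genes was 25.9 to 35.1 in iCT and 79.3 to 226 in relapse.

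Of 10 tested genes of mast cells, basophils and eosinophils 4 were higher and none lower, beside 1.38% and 0.97% of all genes tested. The list as a whole moved little, with 7 positive and 3 negative changes and a median of 0.21 beside 0.16 for all genes. Its median difference from the vehicle mean overlapped between the groups, at -0.56 to -0.28 in iCT and -0.36 to 0.13 in relapse. Hdc, which makes histamine, stood at 26.3, 24.3 and 28.1 FPKM in iCT and at 54.8, 77.5, 54.9 and 74.9 in relapse (change 1.27, SE 0.16, adjusted p = 0.0173). Siglecf, an eosinophil surface lectin, changed by 2.0, Prg3, a granule protein gene, by 1.33 and Gata2 by 1.26. The sums over the whole list were 143 to 189 FPKM in iCT and 227 to 270 in relapse. The mast cell and cytokine genes Tpsab1, Il4 and Il13 were at 0 in all 7 libraries. Without iCT mouse 1, 5 members passed, and without a relapse mouse 0 or 1. By limma none of the 5 B and plasma cell genes (1 higher and 1 lower at an unadjusted p under 0.05) and none of the 3 T and natural killer cell genes (0 at that level) passed. Of 9 stromal and endothelial genes Igfbp4 and Lpl were lower, the latter past the filter through iCT alone, with 6 of the listed genes at 0 throughout. Of 5 megakaryocyte genes only Pf4, also a macrophage gene here, was lower, and of 11 dendritic cell and MHC class II genes H2-DMa was higher.

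Among 17 tested stem and progenitor markers 5 were higher in relapse and none lower, beside 1.38% and 0.97% of all genes tested. Without iCT mouse 1 the counts were 9 and none, beside 3.38% and 1.63%, and without any single relapse mouse 2 and none. Positive changes were seen in 16 of the 17, against 66.3% of all genes, and the median was 0.67 against 0.16 over all genes tested. Cd34, a sialomucin of stem and progenitor cells (chr1:194938821-194961292), stood at 22.3, 30.1 and 28.4 FPKM in iCT and at 109, 127, 150 and 132 in relapse. The lowest relapse mouse stood above the highest iCT mouse, and the change was 2.22 (SE 0.15, adjusted p = 0.00171). The vehicle mice, at 75.2 to 122 FPKM, overlapped with the relapse mice. Kit, the stem cell factor receptor (chr5:75574987-75656721), stood at 8.72, 5.60 and 6.21 FPKM in iCT and at 28.1, 32.1, 26.9 and 39.4 in relapse (change 2.06, SE 0.20, adjusted p = 0.00601).

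Cd93, a C-type lectin-like receptor of immature cells, stood at 2.24, 5.57 and 9.62 FPKM in iCT and at 27.3, 37.7, 35.2 and 48.6 in relapse (change 2.62). Gata2, a transcription factor of stem cells and mast cells, stood at 3.95, 2.18 and 3.30 FPKM in iCT and at 8.75, 8.21, 8.47 and 9.77 in relapse. Adgrg1, an adhesion receptor of stem cells, changed by 1.53 and lost its call without iCT mouse 2 and without any relapse mouse. Flt3, a receptor tyrosine kinase of multipotent progenitors, stood at 5.57, 1.31 and 1.51 FPKM in iCT and at 9.06, 6.69, 13.8 and 6.19 in relapse. Its groups did not overlap and its change of 1.5 missed the threshold (SE 0.41, adjusted p = 0.0960). Without iCT mouse 1 Flt3 passed (change 1.98, adjusted p = 0.0117). With all 7 libraries none of 22 tested genes of the MLL-AF9 programme, Flt3 among them, passed by limma (6 higher and 1 lower at an unadjusted p under 0.05). Hoxa9 had the change of -0.14 (SE 0.16), Meis1 0.63 (SE 0.26), Pbx3, a partner of both, 1.13 (SE 0.36), and Myb 0.29 (SE 0.12).

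**Figure D2:**
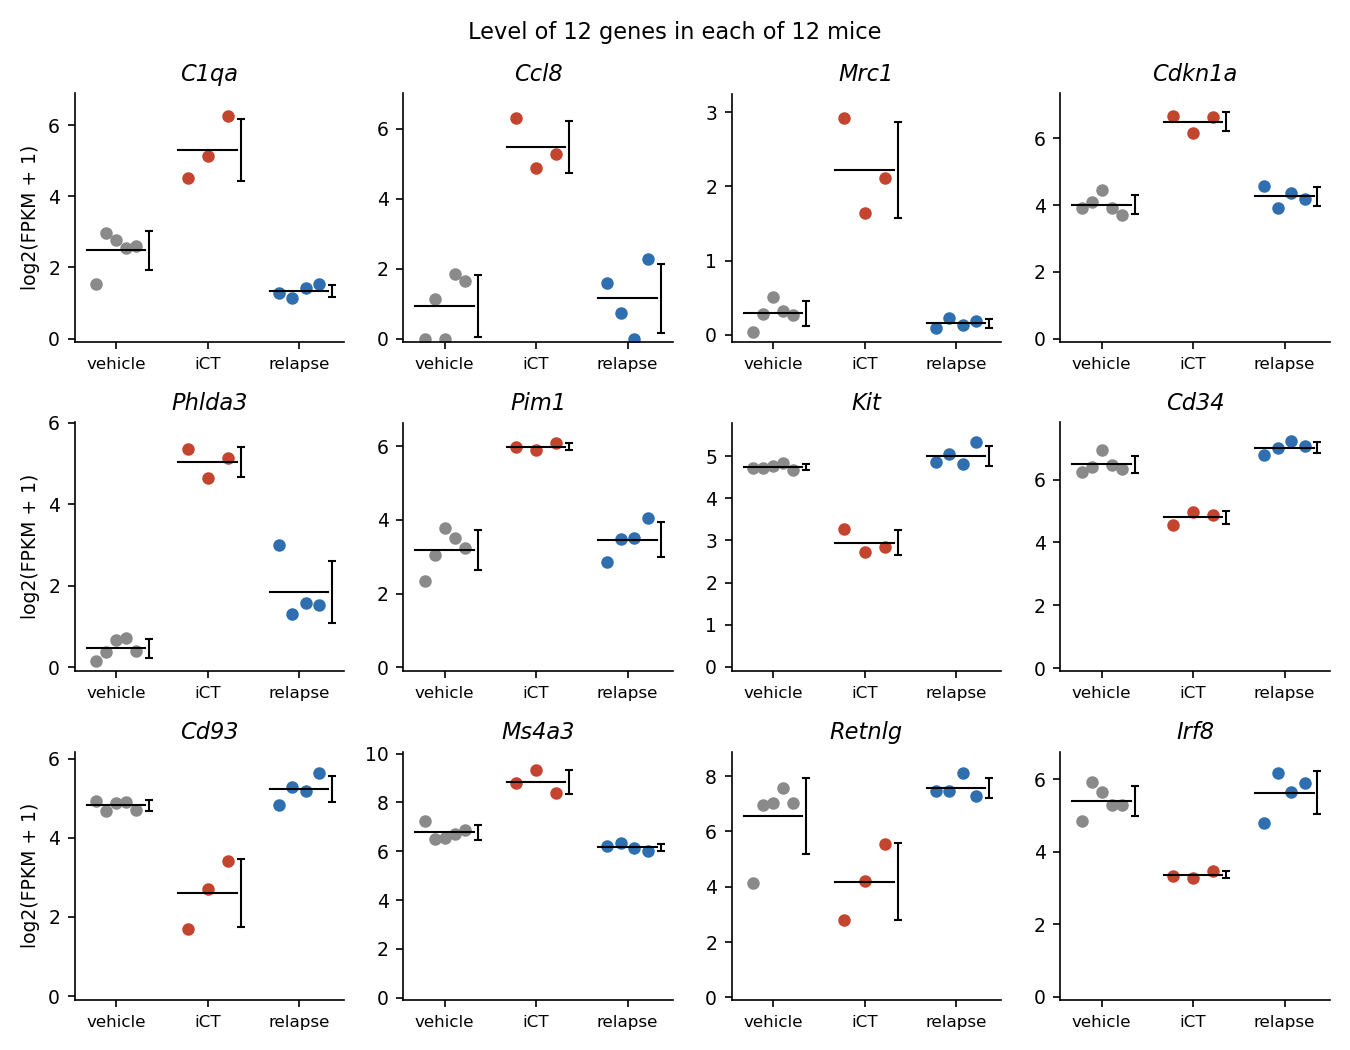
Level of 12 genes as log2(FPKM + 1) in each mouse (vertical axis), grouped as vehicle (grey), iCT (red) and relapse (blue). Horizontal lines are group means and the bars beside them SDs over mice. C1qa, Ccl8, Mrc1, Cdkn1a, Phlda3, Pim1 and Ms4a3 were higher in every iCT mouse than in any relapse mouse, and Kit, Cd34, Cd93, Retnlg and Irf8 were lower.

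Of 39 tested targets of p53 5 were lower in relapse and none higher, beside 0.97% of all genes lower. The count was 8 lower without iCT mouse 1, beside 1.63% of all genes, and 1 or 2 without a relapse mouse. At an unadjusted p under 0.05 the counts were 18 lower and 2 higher, where 6.24% of all genes were lower, and the median was -0.45. Cdkn1a, the gene of p21, which blocks cyclin-dependent kinases (chr17:29090986-29100722), stood at 101, 70.7 and 97.7 FPKM in iCT and at 22.9, 14.1, 19.4 and 17.3 in relapse (change -2.23, SE 0.20, adjusted p = 0.00427). Vehicle mice held 12.1 to 21 FPKM, close to the relapse mice. Phlda3, an inhibitor of AKT signalling, stood at 39.9, 24 and 34 FPKM in iCT and at 6.93, 1.49, 1.96 and 1.88 in relapse (change -3.19, SE 0.40, adjusted p = 0.017). Every relapse mouse held more Phlda3 than any vehicle mouse, whose highest value was 0.642 FPKM.

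Ccng1, which encodes cyclin G1, stood at 79.0, 101 and 81.8 FPKM in iCT and at 41.7, 30.4, 32.4 and 44.3 in relapse (change -1.22, adjusted p = 0.024). Zmat3, an RNA-binding p53 target, changed by -1.70 and Slc19a2, a thiamine transporter, by -0.99. The death gene Bax had the change of -0.69 (SE 0.16, adjusted p = 0.0589) and the feedback ubiquitin ligase gene Mdm2 -0.82 (SE 0.23, adjusted p = 0.0967). With all 7 libraries no gene of the BCL2 family passed by limma (0 of 21, 3 lower and 0 higher at an unadjusted p under 0.05). Without iCT mouse 1, 2 of the 21 were lower, beside 1.63% of all genes. After median-of-ratios scaling or quantile normalization 2 were also lower, and without any single relapse mouse none passed. Hrk, a BH3-only death gene of that family, had the change of -1.91 (adjusted p = 0.0512), and Mcl1, a survival gene, -0.12. Of 48 DNA damage and repair genes H2afx, the histone variant phosphorylated at breaks, was higher (0.63, adjusted p = 0.0435) and Rad51d, a recombination gene, was lower (-2.09). Rad51d, Hrk and Mdm2 belong to the genes with a shared library profile described at the end.

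**Figure D3:**
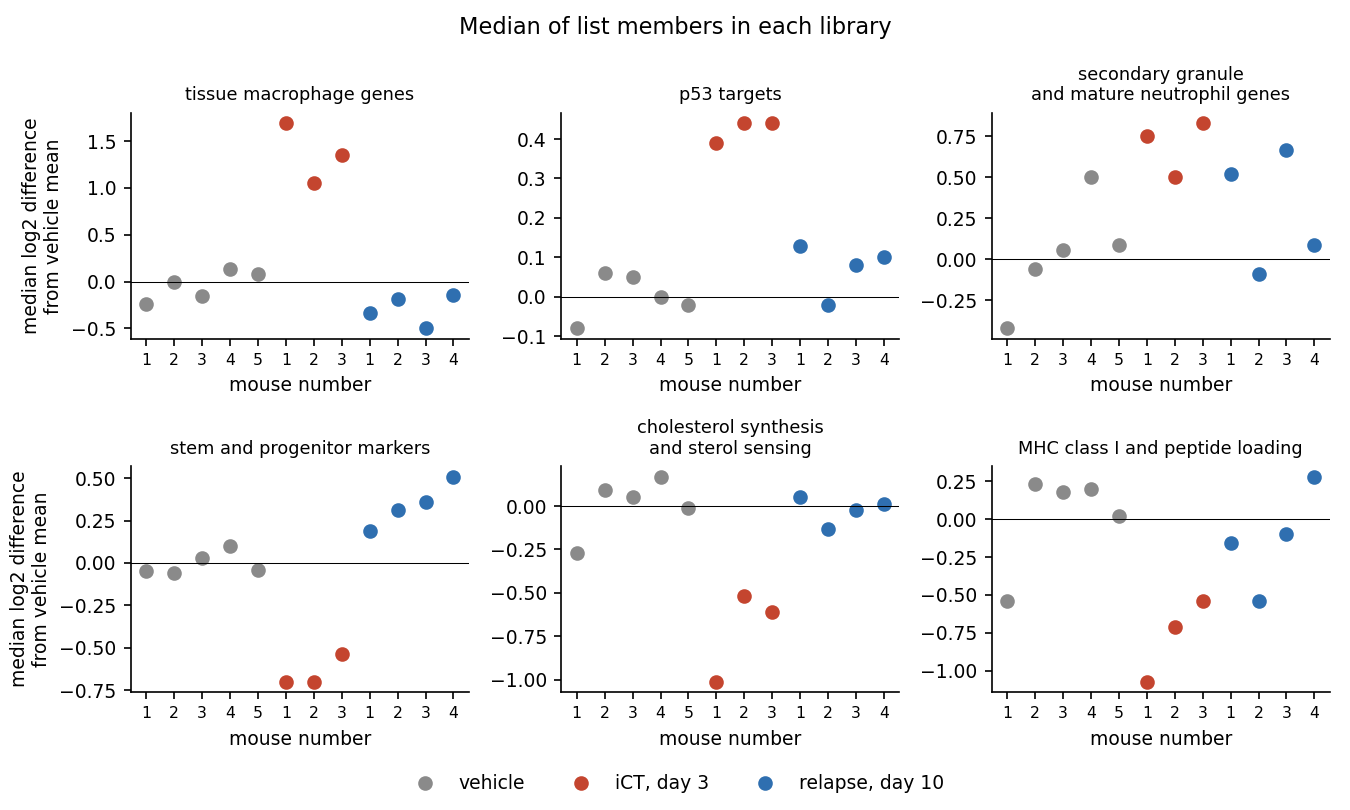
Median over the tested members of 6 gene lists in each library, as the log2 difference from the vehicle mean (vertical axis), against mouse number within vehicle (grey), iCT (red) and relapse (blue). Tissue macrophage genes and p53 targets had their 3 highest values in the iCT mice (1.69, 1.05 and 1.35; 0.39, 0.44 and 0.44), and stem and progenitor markers their 3 lowest (-0.70, -0.70 and -0.54).

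Few cell-cycle genes passed. Of 52 genes of G2 and mitosis 2 were higher and none lower (5 and none without iCT mouse 1, none without any relapse mouse), beside 1.38% of all genes higher, with a median of 0.18 beside 0.16 for all genes tested. Top2a, the topoisomerase that doxorubicin poisons, stood at 43.6, 46.0 and 43.5 FPKM in iCT and at 83.2, 71.7, 65.0 and 95.1 in relapse (change 0.80, SE 0.15, adjusted p = 0.0419). Cdc25b, a phosphatase that starts mitosis, changed by 1.48. Mki67, the proliferation antigen, had overlapping groups, with 13.4, 10.5 and 12.7 FPKM in iCT and 13.6, 13.4, 11.6 and 19.5 in relapse (change 0.22, SE 0.20). With all 7 libraries none of 40 DNA replication genes passed by limma (8 higher and 1 lower at an unadjusted p under 0.05, a share near the 21.4% of all genes). Without iCT mouse 1, 2 of the 40 were higher, beside 3.38% of all genes. Among 22 genes of the G1/S transition, Cdkn1a and Ccnd2 were lower. Ccnd2, which encodes cyclin D2, stood at 3.02, 4.79 and 7.72 FPKM in iCT and at 1.01, 0.961, 0.978 and 1.58 in relapse. Of 27 genes that handle the drugs, such as nucleoside kinases and efflux pumps, only Top2a passed.

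Genes of myeloid maturation changed in both directions. Ms4a3, a membrane gene of granulocyte-monocyte progenitors (chr19:11629499-11640851), stood at 441, 649 and 330 FPKM in iCT and at 73.0, 79.5, 69.0 and 62.8 in relapse (change -2.67, SE 0.21, adjusted p = 0.00284). All 4 relapse mice lay below the vehicle range of 89.7 to 150 FPKM. Of the 21 genes of that progenitor stage 4 were lower and 2 higher, beside 0.97% and 1.38% of all genes tested. The counts were the same without iCT mouse 1, beside 1.63% and 3.38%. When a relapse mouse was left out, 1 or 2 were lower and none higher. The rises were those of Clec12a, an inhibitory lectin (1.05), and Cebpa, the granulocytic master factor (1.0). The falls beside Ms4a3 were Igfbp4, an insulin-like growth factor binding protein gene (-1.03), Dmkn (-2.36) and the protease inhibitor gene Serpinb1a (-0.64). Mpo, the myeloperoxidase gene, split the relapse mice, with 1970 and 1810 FPKM in mice 1 and 3 and 3760 and 3740 in mice 2 and 4, around the iCT values of 2200, 2700 and 2340.

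Of 36 genes of mature neutrophils 6 were lower and 2 higher, beside 0.97% and 1.38% of all genes tested, with a median of -0.53. The counts were the same and the median -0.40 without iCT mouse 1, and none passed without any relapse mouse. The list's median difference from the vehicle mean overlapped between the groups, at 0.50 to 0.83 in iCT and -0.09 to 0.67 in relapse. Stfa2l1, a stefin A protease inhibitor, stood at 731, 686 and 716 FPKM in iCT and at 154, 22.9, 168 and 51.1 in relapse (change -3.24, SE 0.63, adjusted p = 0.0454). Stfa2 changed by -3.84, and relapse mice 1 and 3 again held more (95.2 and 79.4 FPKM) than mice 2 and 4 (9.70 and 15.6). Without iCT mouse 2 or 3, and without any relapse mouse, neither passed. The family has near-identical copies on chromosome 16, so the division of reads among them is uncertain, and Stfa1, Stfa3 and BC100530 had changes of -2.56, -2.83 and -2.89 without passing (adjusted p = 0.0545, 0.0953 and 0.0595). Lcn2, the iron-trapping lipocalin, stood at 1360, 937 and 1280 FPKM in iCT and at 576, 296, 618 and 476 in relapse (change -1.31). Anxa1, Ifitm6 and Chil3 were also lower. Retnlg, a resistin-like gene of neutrophils, went the other way, with 5.92, 17.5 and 46.1 FPKM in iCT and 173, 174, 277 and 154 in relapse (change 3.38, or 2.69 without iCT mouse 1). Ltf, the lactoferrin gene of secondary granules, stood at 71.9, 35.7 and 55.6 FPKM in iCT and at 184, 108, 181 and 183 in relapse (change 1.60). Vehicle mice spread from 11.4 to 211 FPKM for Ltf, a range that holds every iCT and every relapse mouse. In the fit of all 12 libraries Ltf did not pass (adjusted p = 0.149). For Retnlg the vehicle mice spread from 16.6 to 190 FPKM. The iCT and relapse groups did not overlap for either gene, and the list's members therefore did not move as a block.

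Among 26 monocyte genes 4 were higher and 3 lower, beside 1.38% and 0.97% of all genes tested. Without iCT mouse 1 the counts were 5 and 3, beside 3.38% and 1.63%, and without a relapse mouse at most 1 passed. Irf8, the transcription factor that directs progenitors to monocytes, stood at 9.10, 8.67 and 10.1 FPKM in iCT and at 26.6, 71.4, 49.3 and 59.0 in relapse (change 2.27, SE 0.30, adjusted p = 0.0195). Ly86, which encodes MD-1, the protein that pairs with the receptor CD180, was listed at 0, 5.32 and 6.08 FPKM in iCT and stood at 22.1, 85.1, 35.5 and 62.8 in relapse (change 3.71, or 2.79 without iCT mouse 1). Cd180 itself stood at 0, 1.09 and 2.75 FPKM in iCT and at 5.89, 11.5, 8.78 and 10.6 in relapse (change 2.33), so that both genes of this receptor pair were higher. Relapse mouse 1 was the lowest of its group for Irf8, Ly86 and Cd180. Ly6c2, a marker of inflammatory monocytes, stood at 502, 579 and 480 FPKM in iCT and at 844, 1660, 915 and 1920 in relapse (change 1.27, SE 0.29), and missed the threshold (adjusted p = 0.0597). Spn, which encodes CD43 (0.68), and Ms4a6c (0.74) were also higher. The lower members included Fcgr1, the high-affinity IgG receptor (-1.55, past the filter through iCT alone), and the endotoxin receptor gene Tlr4 (-1.10). Of 22 myeloid transcription factors 2 were higher, Irf8 and Cebpa, and 3 lower, among them Maf and Rara, the latter with the library profile described at the end.

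Among signalling and niche genes Pim1 passed in all 7 omissions of a library. Cd38 passed in the 4 omissions of a relapse mouse and was not tested without any iCT mouse. Pim1, a survival kinase induced by STAT5 (chr17:29491045-29495459), stood at 62.0, 58.3 and 66.7 FPKM in iCT and at 6.26, 10.1, 10.3 and 15.5 in relapse (change -2.51, SE 0.25, adjusted p = 0.00601). Vehicle mice spanned 4.07 to 12.7 FPKM. Il3ra, the IL-3 receptor alpha chain, went from 20.2, 20.7 and 19.8 FPKM in iCT to 40.4, 48.2, 47.0 and 37.7 in relapse (change 1.05, adjusted p = 0.017). Il1r2, the decoy receptor for IL-1, changed by -1.76, and these 3 were the members that passed of 30 tested. Of 27 adhesion and niche genes 3 were higher and 2 lower, beside 1.38% and 0.97% of all genes tested. Without iCT mouse 1 the counts were 7 and 1, beside 3.38% and 1.63%. Cxcr4, the CXCL12 receptor that keeps blood-forming cells in bone marrow, stood at 98.4, 68.5 and 79.0 FPKM in iCT and at 128, 160, 158 and 170 in relapse (change 0.91, adjusted p = 0.0335). Itgb7, an integrin chain, changed by 2.22 and Cd44, the hyaluronan receptor, by 0.56. Cd38, an NAD-consuming ectoenzyme, stood at 4.88, 5.69 and 7.74 FPKM in iCT and at 0.430, 0.322, 0.603 and 0.610 in relapse (change -2.24, SE 0.22, adjusted p = 0.00601). Its values in iCT alone took it past the filter. F11r, a junctional adhesion gene, was lower (-2.35) and belongs to the genes with the shared profile described at the end.

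Of 26 tested genes of cholesterol synthesis and sterol sensing 4 were higher in relapse and none lower, beside 1.38% and 0.97% of all genes. Without iCT mouse 1 the counts were 8 and none, beside 3.38% and 1.63%. Positive changes were seen in 24 of the 26, against 66.3% of all genes, and the median of 0.77 stood beside 0.16 for all genes. Sqle, the squalene epoxidase, stood at 8.5, 10.3 and 7.54 FPKM in iCT and at 16.3, 17.1, 15.7 and 18.8 in relapse (change 0.88, SE 0.16, adjusted p = 0.0412). Insig1, the sterol sensor that restrains the pathway, stood at 15.7, 14.2 and 11.9 FPKM in iCT and at 23.3, 23.3, 25.4 and 27.8 in relapse (change 0.80, adjusted p = 0.0435). Neither gene's groups overlapped, and the relapse mice were within the vehicle range of 13.4 to 22.4 FPKM for Sqle. Without iCT mouse 1 the list's median was 0.46, without any single relapse mouse no member passed, and in the fit of all 12 libraries 12 passed. No gene of fatty acid synthesis passed by limma (0 of 15, 7 higher and 1 lower at an unadjusted p under 0.05), and Acly, which supplies cytosolic acetyl-CoA, had the change of 0.65 (adjusted p = 0.0506).

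Other metabolic groups held few changes. Phgdh, which opens serine synthesis, stood at 82.1, 71.1 and 68.5 FPKM in iCT and at 26.7, 26.7, 23.7 and 44.6 in relapse (change -1.29, SE 0.21, adjusted p = 0.0297). It was the member that passed of 33 ATF4 targets, whose median was -0.28 (-0.29 without iCT mouse 1) with 13 lower and 1 higher at an unadjusted p under 0.05. With Folr2, it was also 1 of 2 lower genes among 20 of serine and one-carbon metabolism. By limma no gene passed in de novo pyrimidine synthesis (0 of 22, 2 higher and 3 lower at an unadjusted p under 0.05), in glutamine and aspartate use (0 of 25, 3 and 3) or in the respiratory chain and ATP synthase (0 of 71, 0 and 2). Dhodh, the pyrimidine enzyme of mitochondria, stood at 18.2, 18.5 and 18.6 FPKM in iCT and at 17.0, 17.0, 16.7 and 14.6 in relapse, a change of -0.17 (SE 0.13, adjusted p = 0.456). Umps, which completes UMP, had the change of 0.03 (SE 0.18), Cad -0.03 (SE 0.18) and the glutamine transporter gene Slc1a5 0.09 (SE 0.18). Rrm2, the ribonucleotide reductase subunit, had the change of -0.62 (SE 0.13, adjusted p = 0.0519). Without iCT mouse 1 Rrm2 passed (change -0.72, adjusted p = 0.0238).

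Aldoc, a glycolytic aldolase, was listed at 0, 1.28 and 0.514 FPKM in iCT and stood at 6.32, 3.94, 3.87 and 5.28 in relapse (change 1.93). With Ankrd37 it was higher among 25 targets of hypoxia-inducible factors, and Aldoc alone passed among 25 glycolytic genes. Of 33 genes of glutathione, thioredoxin and NADPH supply Hmox1 and G6pdx were lower. G6pdx, the first enzyme of the pentose phosphate pathway, stood at 160, 118 and 144 FPKM in iCT and at 82.6, 79.3, 87.3 and 75.3 in relapse (change -0.78, SE 0.13, adjusted p = 0.0297). Fth1, the ferritin heavy chain, had the change of -0.66, and with Hmox1 it was lower among 19 genes of iron handling. Of 24 genes of fatty acid uptake and oxidation Lpl alone passed, and it entered the test through iCT alone. Myc stood at 119, 57.2 and 83.7 FPKM in iCT and at 83.4, 84.0, 74.9 and 90.5 in relapse, with no difference of means (change -0.00, SE 0.22). None of 43 genes of ribosome biogenesis (11 lower and 0 higher at an unadjusted p under 0.05) and none of 50 ribosomal protein genes (1 lower) passed by limma.

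Of 24 genes of MHC class I and peptide loading 1 was higher and none lower. Positive changes were seen in 22, against 66.3% of all genes, 13 of them at an unadjusted p under 0.05, and the median was 0.68 (0.50 without iCT mouse 1). The groups met in the list's median difference from the vehicle mean, at -1.07 to -0.54 in iCT and -0.54 to 0.28 in relapse. Relapse mouse 2 stood at -0.54, the value of iCT mouse 3. Tapbp, which encodes tapasin, stood at 62.9, 70.1 and 87.7 FPKM in iCT and at 148, 114, 123 and 157 in relapse (change 0.87, SE 0.16, adjusted p = 0.0435). Vehicle mice spread from 66.3 to 146 FPKM of Tapbp. H2-DMa, a peptide-loading chain of class II, stood at 38.0, 49.2 and 47.7 FPKM in iCT and at 89.4, 90.1, 101 and 105 in relapse (change 1.09, adjusted p = 0.014). Of 40 genes of lysosome and autophagy, whose median of 0.26 (0.12 without iCT mouse 1) was near that of all genes, Scpep1, a carboxypeptidase (2.13), and Hexa, a hexosaminidase subunit (0.94), were higher and Lgmn, the legumain protease (-2.73), was lower. Of 37 interferon-stimulated genes Gbp3 was higher and Rtp4 lower. Of 17 chemokine and cytokine genes Ccl3 (1.49) and Tgfb1 (0.53) were higher and Ccl8 lower. Of 24 endoplasmic reticulum chaperones Sdf2l1 was lower (-0.68).

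**Figure D4:**
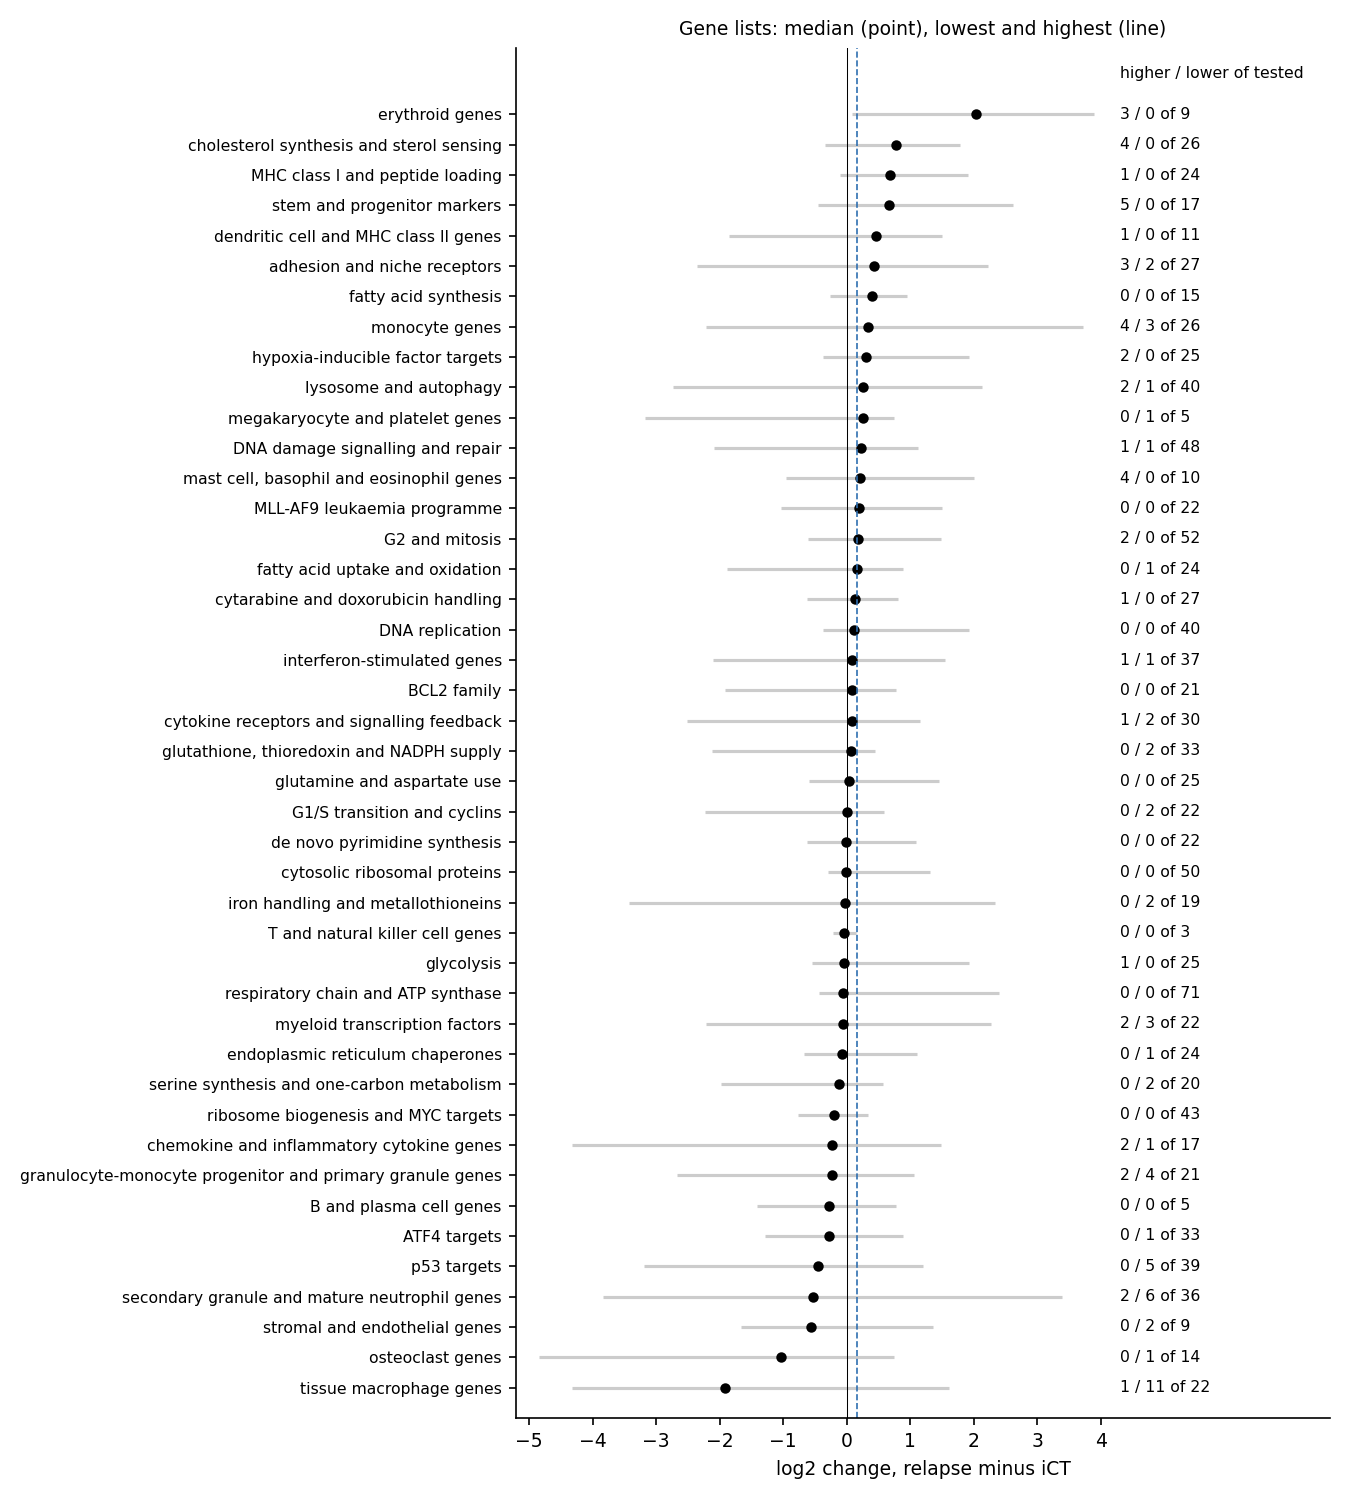
Each row is a gene list, with the median log2 change of its tested members from iCT to relapse (point) and their lowest and highest change (line). The dashed line marks the median of all genes tested (0.16), and the numbers at the right give members that were higher and lower at an adjusted p under 0.05, of those tested. Tissue macrophage genes had the lowest median (-1.91). The erythroid point is that of Car1, listed at 0 in all iCT mice, so its place depends on the pseudocount.

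The smallest p of the whole comparison belonged to Eif3j1, a subunit gene of a translation initiation factor. Eif3j1 stood at 39.1, 30.0 and 33.0 FPKM in iCT and at 0.565, 0.199, 0.344 and 0.439 in relapse (change -4.66, SE 0.19, adjusted p = 6.3e-05). In the tables it shares its place, chr2:122028580-122053632, with Eif3j2 (chr2:122028583-122053631), so the reads of one gene model could be given to the other. Eif3j2 stood at 39.2, 36.5 and 19.8 FPKM in iCT and at 62.1, 53.9, 46.4 and 57.2 in relapse. The sums of both entries overlapped, with 78.4, 66.5 and 52.8 FPKM in iCT and 62.7, 54.1, 46.7 and 57.6 in relapse. Among vehicle mice the split ran from 77.5 against 0.499 FPKM in mouse 3 to 0.337 against 55.4 in mouse 4, while the sums lay between 47.6 and 78.0. All Eif3j1 values in relapse were under 1 FPKM, so that its iCT values alone took it past the filter.

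A block of the genes lower in relapse followed 1 profile over the libraries. Tmem220, a transmembrane protein gene, stood at 667, 166 and 432 FPKM in iCT and at 86.2, 42.9, 60.1 and 85.9 in relapse (change -2.44, SE 0.45, adjusted p = 0.0429). Over all 12 libraries 72 tested genes had a Pearson correlation of at least 0.95 with it, and 102 of at least 0.9, which describes these libraries and was noticed after the values were seen. Of the 104 genes lower in relapse 39 were among those 102 of 10719 tested, and none of the genes higher in relapse. Tmem220 is itself lower and the correlation includes the 7 libraries compared, so the selection favoured this split, which is a description. The 39 included Enah, Uncx, Barhl2, Meis2, Havcr2, F11r, Rara and Rad51d. Relative to each gene's mean, the median of the 72 stood at 1.85, 0.03 and 1.2 in iCT mice 1 to 3 and at -0.69, -1.42, -1.07 and -0.71 in relapse mice 1 to 4. Vehicle mouse 1 stood at 1.12 and the other vehicle mice between -0.26 and 0.30.

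A run of at least 18 bases of alternating CA or TG was present in a GENCODE M21 transcript of 65 of the 70 of these genes that matched one (92.9%). The same held for 1526 of 10310 tested genes with a transcript (14.8%), and for 10 of the 65 genes lower in relapse with a correlation under 0.9 (15.4%). Of 604 genes with a run of at least 40 bases 38 were lower (6.29%) and 10 higher (1.66%), against 0.97% and 1.38% of all genes tested. On this profile iCT mouse 1, the shallowest library with 362268 implied fragments, stood highest at 1.85. The library of iCT mouse 3, with 6229636, stood at 1.2, and that of vehicle mouse 3, with 1226471, at 0.01. Whether depth or the runs had a part in the change was not tested. Without the 102 genes, 149 genes passed, of which 103 were higher and 46 lower.

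**Figure D5:**
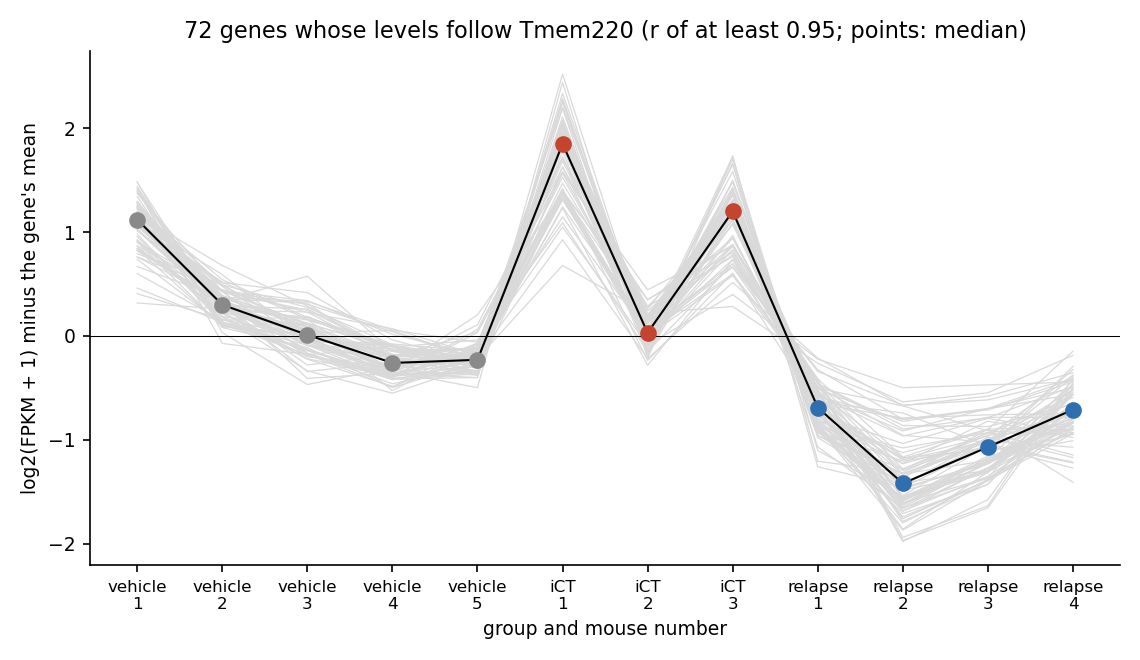
Each grey line is 1 of 72 genes whose log2(FPKM + 1) followed Tmem220 over the 12 libraries, drawn as the difference from the gene's mean (vertical axis) against group and mouse (horizontal axis). Points are medians, coloured by group. The 4 relapse mice had the lowest medians, from -1.42 to -0.69, and iCT mice 1 and 3 and vehicle mouse 1 the highest.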

How the data were processed

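RNA of GFP-sorted leukaemia cells was extracted with a micro kit and made into libraries with NEB kits, per the labels' protocols. Per the submitters' processing notes, STAR, Cufflinks and the build mm9 were used, with no versions or roles stated; the positions in the tables overlapped the GRCm38 gene of the same symbol for 22934 of 23072 symbols (99.4%). The authors deposited 1 FPKM table per library with the lower and upper limit of each value, and these FPKM are scaled to transcript length and library size. No counts were used here. The fragments behind each library were estimated from the FPKM limits, and they set the precision: iCT mouse 1 rested on 362268 of them and the other libraries compared on 2782481 to 8362627. Depth of a single gene was not recorded. Entries of 1 symbol at several loci number 817, 2 entries with a failed status were left out, and no pair of libraries held identical values.

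For testing, 1 was added to each FPKM and the log2 taken. The test was that of limma 3.58.1 under R 4.3.3 (empirical Bayes with a variance trend, two-sided, Benjamini-Hochberg over all 10719 genes, threshold 0.05), fitted to the 3 iCT and 4 relapse libraries with group as the only term. The script was tested on simulated data. Every adjusted p in the text is from this fit unless named otherwise. Fold changes on this scale understate those of low genes.

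The members and the 43 gene lists (1255 symbols, of which 1247 were found and 1018 tested) were chosen with earlier results of these data known. No list was tested; counts and medians describe it. Named genes were the 12 largest rises and 12 largest falls past the threshold with a mean of at least 5 FPKM in a group and no overlap of groups, up to 4 members of each list with the smallest p (up to 2 where none passed), and a fixed set. Predicted gene models and symbols at several loci were passed over. A further 38 genes, among them Eif3j2, Tmem220, Adgre1, Mrc1, Trem2, Apoe, Acp5, Retnlg, Ltf, Lcn2, Gm2a and S100a6, were chosen after their values were seen. In all, 20 other settings were tried, 1 of them (without genes that follow Tmem220) chosen after seeing the data. Vehicle libraries entered no test but the fit of all 12. Promoters came from the RefSeq table (GRCm38.p6). Some genes of these lists are not reported here.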

Additional observations from a re-analysis of the deposited data

Results flagged for a closer look

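The 4 relapse mice were checked for a mouse that stood apart (the group of 3 iCT mice was not), and for 9 of 149 genes the gap between the highest or lowest relapse mouse and the nearest other exceeded Dixon's 95% critical value. Chance alone flags about 1 in 20 such groups. Relapse mouse 1 was highest for the p53 target Phlda3 (6.93 FPKM, the others 1.49 to 1.96), for Il1r2 (3.56 FPKM, the others 2.66 to 2.75) and for Dcstamp (0.21 FPKM, the others listed at 0). Relapse mouse 4 was highest for Scpep1 (36.1 FPKM, the others 22.6 to 23.7), Ccnd2 (1.58 FPKM, the others 0.961 to 1.01) and Gm2a (144 FPKM, the others 115 to 119), and lowest for Dhodh (14.6 FPKM, the others 16.7 to 17.0). Relapse mouse 2 was lowest for Ltf (108 FPKM, the others 181 to 184), and relapse mouse 3 highest for Ccl3 (19.4 FPKM, the others 12.1 to 13). No cause of these values was tested.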

How the results depend on the processing

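The comparison found 252 genes, a count that most settings moved. It was 105 with a pseudocount of 0.1, 36 with no filter on low values, 400 after quantile normalization, 461 with array weights (iCT mouse 1 weighted at 0.118), 743 with precision weights, 124 with no variance trend, 1103 in the fit of all 12 libraries and 149 without the genes that follow Tmem220. It stayed within 1.5 times with a pseudocount of 0.5 (217), an FPKM minimum of 5 (268), median-of-ratios scaling (330) and robust empirical Bayes (280). Omitting 1 library gave 15 (relapse mouse 2) to 533 (iCT mouse 1). The cause of these shifts was not tested. Omissions leave fewer samples, and the count rose without iCT mouse 1 or 2 and fell without any other mouse. Whether mouse numbers pair the samples was not settled. Same-numbered iCT and relapse deviations correlated at 0.095, 0.032 and 0.110, and differently numbered ones at -0.129 to 0.103. The same-numbered value was the highest for iCT mice 1 and 3, while iCT mouse 2 correlated best with relapse mouse 4 (0.103). With mouse number as a block 57 genes passed (13 higher, 44 lower), 40 of them shared with the 252.

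Of 149 named genes 104 passed. None of the 104 changed direction under any setting. Their groups did not overlap, so omissions, other pseudocounts and weights could not have reversed a change. Of the 104, 95 passed without iCT mouse 1, 95 with array weights and 102 in the fit of all 12 libraries. Of the named genes that were not among the 104, 8 changed direction under at least 1 setting. After median-of-ratios scaling the change was -0.08 for Glul, -0.01 for Got1, -0.03 for Slc1a5 and -0.09 for Umps. With array weights it was -0.16 for Glul, 0.10 for Myc, -0.14 for Slc1a5 and -0.15 for Umps. With precision weights it was -0.05 for Glul, 0.03 for Myc and -0.03 for Umps. It was -0.05 for Glul after quantile normalization, 0.00 for Myc with a pseudocount of 0.1 and -0.02 for Mpo with the replicate block. Omitting 1 library gave -0.13 to 0.07 for Cd8b1, -0.24 to 0.09 for Cad, -0.14 to 0.18 for Glul, -0.02 to 0.33 for Mpo, -0.27 to 0.26 for Myc, -0.12 to 0.23 for Slc1a5 and -0.19 to 0.17 for Umps. With 3 and 4 mice and 1 shallow iCT library, genes of a few FPKM carried the least precision.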

Other observations

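Several genes outside the lists' leading members also separated the groups, and they were chosen after their values were seen. Gm2a, the activator protein for ganglioside breakdown in lysosomes, stood at 40.3, 31.6 and 33.3 FPKM in iCT and at 115, 117, 119 and 144 in relapse (change 1.79, SE 0.13, adjusted p = 0.00242). Vehicle mice held 109 to 140 FPKM of Gm2a, the level of the relapse mice. Further lysosomal hydrolase genes that passed were Naglu (1.10), Man2b1 (0.85) and Asah1 (0.64), the acid ceramidase gene.

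S100a6, a calcium-binding protein gene, stood at 14.0, 11.5 and 13.3 FPKM in iCT and at 53.3, 39.1, 58.8 and 49.7 in relapse (change 1.87, SE 0.16, adjusted p = 0.00427). Vehicle mice spread from 4.61 to 47.4 FPKM, so that iCT lay within their range. Slpi, the secretory inhibitor of neutrophil proteases, stood at 121, 193 and 218 FPKM in iCT and at 543, 483, 532 and 511 in relapse (change 1.58, adjusted p = 0.0138). Thbd, which encodes thrombomodulin, stood at 2.74, 2.19 and 2.60 FPKM in iCT and at 8.63, 15.7, 12.4 and 13.3 in relapse (change 1.92, adjusted p = 0.0126). Penk, the proenkephalin gene, was listed at 0, 0.954 and 0.841 FPKM in iCT and stood at 4.66, 8.67, 7.64 and 4.52 in relapse (change 2.22). It passed the filter through relapse alone, which favoured a difference. Pik3ip1, an inhibitor of PI3-kinase, stood at 0, 3.54 and 3.24 FPKM in iCT and at 15.6, 11.5, 11.9 and 15.1 in relapse (change 2.43, or 1.72 without iCT mouse 1).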
